A study of Mus musculus with 8 samples.

Results

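The genes followed here in neurospheres are switched on by growth factor signaling through ERK and in turn restrain or relay it. They were 10 in number: the ETS factors Etv1, Etv4 and Etv5, the Sprouty genes Spry1, Spry2 and Spry4, the phosphatases Dusp4 and Dusp6, and the pathway inhibitors Spred1 and Il17rd. Members were found by symbol, and a probe set was used only where the array annotation gave it 1 member and no other gene. Of the 45101 probe sets on the Affymetrix mouse genome array used, 24 met that rule, and they covered 9 of the 10 genes, among 18194 genes with a probe set of their own. All 3 probe sets of Etv1 were annotated to a further gene as well, so no Etv1 value is given. The study asked how the secreted chitinase-like protein CHIL3 (also called ECF-L) acts on neural stem cells. Secondary neurospheres, floating clusters grown from neural stem cells, were cultured in 1 of 2 media, and RNA was taken after 3 or 7 days.

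The 8 arrays formed 4 groups of 2: rcCHIL3 at 7 days, MHM + GF at 7 days, rcCHIL3 at 3 days and MHM + GF at 3 days. rcCHIL3 was medium hormone mix (MHM) conditioned by the human cell line HEK293T after transfection with Chil3, and the methods name added growth factors only for the other medium. MHM + GF was the same base medium supplemented with FGF-2 and EGF, and the sample labels call this group MHM alone. The 2 arms therefore differ in CHIL3, in conditioning by HEK293T cells and in added growth factors at once, and these cannot be told apart. The primary neurospheres of every group had been raised with EGF and FGF-2. The series description names adult mouse brain as the source, whereas the methods describe embryonic and adult striatum without saying which was put on the arrays. No strain, age or genotype was given with the samples. The methods call the repeats of a group independent experiments.

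Binding of FGF or EGF to its receptor passes through RAS, RAF and MEK to ERK, a kinase that enters the nucleus and changes transcription. Among the genes that follow ERK most closely are ETS factors of the PEA3 group, which carry the signal on to further targets, and inhibitors that close a negative feedback loop. In the developing brain and in cultured neural progenitors, transcripts of Etv, Spry and Dusp genes are widely used to mark cells receiving FGF.

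RefSeq promoter windows (GRCm38.p6, the 250 bases before each start) were used for 7 of the 10 genes, in 9 windows. Member windows on a left-out chromosome were not searched, whereas the counts over all promoters kept every chromosome. The following 3 are examples from genes that were lower in rcCHIL3 than in MHM + GF at 3 days, namely Dusp6, Spry1 and Etv5. Capitals mark GGAA, the core letters bound by ETS factors, read on either strand (TTCC).
Dusp6, chr10:99262981-99263230, plus strand: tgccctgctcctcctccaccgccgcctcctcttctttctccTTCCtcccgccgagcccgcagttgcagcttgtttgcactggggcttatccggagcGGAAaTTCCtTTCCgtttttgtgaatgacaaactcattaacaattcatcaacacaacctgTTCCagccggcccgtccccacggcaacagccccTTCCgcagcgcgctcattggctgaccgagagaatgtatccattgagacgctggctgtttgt
Spry1, chr3:37639697-37639946, plus strand: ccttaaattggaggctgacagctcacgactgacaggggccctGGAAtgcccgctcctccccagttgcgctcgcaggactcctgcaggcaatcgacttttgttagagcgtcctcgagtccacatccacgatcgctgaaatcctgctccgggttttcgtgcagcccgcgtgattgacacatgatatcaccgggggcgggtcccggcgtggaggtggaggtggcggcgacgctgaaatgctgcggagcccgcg
Etv5, chr16:22439571-22439820, minus strand: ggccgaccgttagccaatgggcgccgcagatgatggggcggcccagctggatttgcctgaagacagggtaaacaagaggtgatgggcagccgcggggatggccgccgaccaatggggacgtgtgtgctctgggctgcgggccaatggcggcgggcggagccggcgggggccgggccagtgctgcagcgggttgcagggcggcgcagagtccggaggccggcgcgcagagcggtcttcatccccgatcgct

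Matches to GGAA numbered 6 in the Dusp6 window, 1 in the Spry1 window and 0 in the Etv5 window shown, against a median of 3 over all 32851 promoters. The second Etv5 start, further downstream, had 4. Spry2 and Il17rd, also lower in rcCHIL3 at 3 days, had 3 and 4 in windows not shown. In all, 8 of the 9 windows held the core, as did 93.4% of all promoters. The longer ETS motif CCGGAAG was in 0 of the 9 windows and in 6.91% of all promoters. TGACGT, part of the cAMP response element, was in 0 of the 9 and in 6.47%, and the AP-1 motif TGAGTCA was in 0 of the 9 and in 4.46%. Each motif was searched on both strands, and CCGGAAG contains the GGAA core, which was added after the other 3 counts were known. These are counts of letters in the windows and do not show where a factor binds.

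Signals were scaled so that the average over an array was 100, and changes were computed on log2(signal + 20), a scale that understates changes of dim probe sets. Arrays of the same group correlated at 0.992 to 0.994, and 30.1 to 31.5% of probe sets reached a signal of 50. A probe set was tested where at least 2 arrays reached 50, which kept 13 of the 24 member probe sets and at least 1 for each of the 9 genes. For Etv4, Spry1, Dusp4 and Il17rd, only MHM + GF arrays reached 50, so these genes were tested through the groups in which they were high. The same holds for the second Etv5 probe set that was tested. In whole cultures, fewer cells expressing a gene and less RNA per cell cannot be told apart. Of the neural stem and progenitor markers, 9 of 10 were tested (Nes, Sox2 and others), whereas 0 of 7 microglial and 0 of 6 endothelial markers were, their brightest single signals being 26.3 and 30.9. A list of 8 proliferation markers moved with the groups. Its summed signal was 1045 to 1117 in rcCHIL3, against 2054 to 2136 in MHM + GF, at 7 days, and 1460 to 1557 in rcCHIL3, against 4914 to 5082 in MHM + GF, at 3 days. The 7 tested markers of this list were all lower in rcCHIL3 on both days, and their part in the results was not tested. Other marker lists moved with the media too. Summed stem and progenitor markers were 7963 to 7979 in rcCHIL3, against 8722 to 8753 in MHM + GF, at 7 days, and 7351 to 7646 against 8992 to 9220 at 3 days. At 3 days astrocyte markers summed to 7158 to 7407 in rcCHIL3, against 5097 to 5156 in MHM + GF, those of myelinating oligodendrocytes to 5196 to 5316 against 3163 to 3178, and those of oligodendrocyte progenitors to 1600 to 1644 against 1084 to 1146. At 7 days mural and fibroblast markers summed to 93.3 to 101 in rcCHIL3, against 440.0 to 481 in MHM + GF. Only 2 of these 6 markers were tested, both lower in rcCHIL3 at 7 days, and the highest single signal was 237. Neuroblast and neuron markers summed to 1172 to 1290 in rcCHIL3, against 1851 to 1883 in MHM + GF, at 7 days. At 3 days they summed to 1497 to 1514, against 1370 to 1406. Single markers did not all follow the sums at 3 days. Stem and progenitor markers were 4 lower and 3 higher in rcCHIL3, astrocyte markers 2 and 4, and neuroblast and neuron markers 2 and 3. Oligodendrocyte progenitor markers were 2 and 2, and those of myelinating oligodendrocytes 0 and 4. Of all tested probe sets, 22.5% were lower and 27.7% higher. The part of these lists in the results was not tested either.

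At 3 days, both Etv genes, all 3 Sprouty genes, Dusp6 and Il17rd were lower in rcCHIL3 than in MHM + GF. Of the 9 tested genes, 7 passed the threshold downward (limma, adjusted p under 0.05 over all tested probe sets) and 0 passed upward. Of all tested probe sets 22.5% were lower and 27.7% were higher, 50.2% in all. The median change of the 9 genes was -1.19 on the log2 scale, against 0.03 over all tested probe sets. Among the 7 were Etv4, Spry1 and Il17rd, which had been tested only through MHM + GF arrays.

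**Figure D1:**
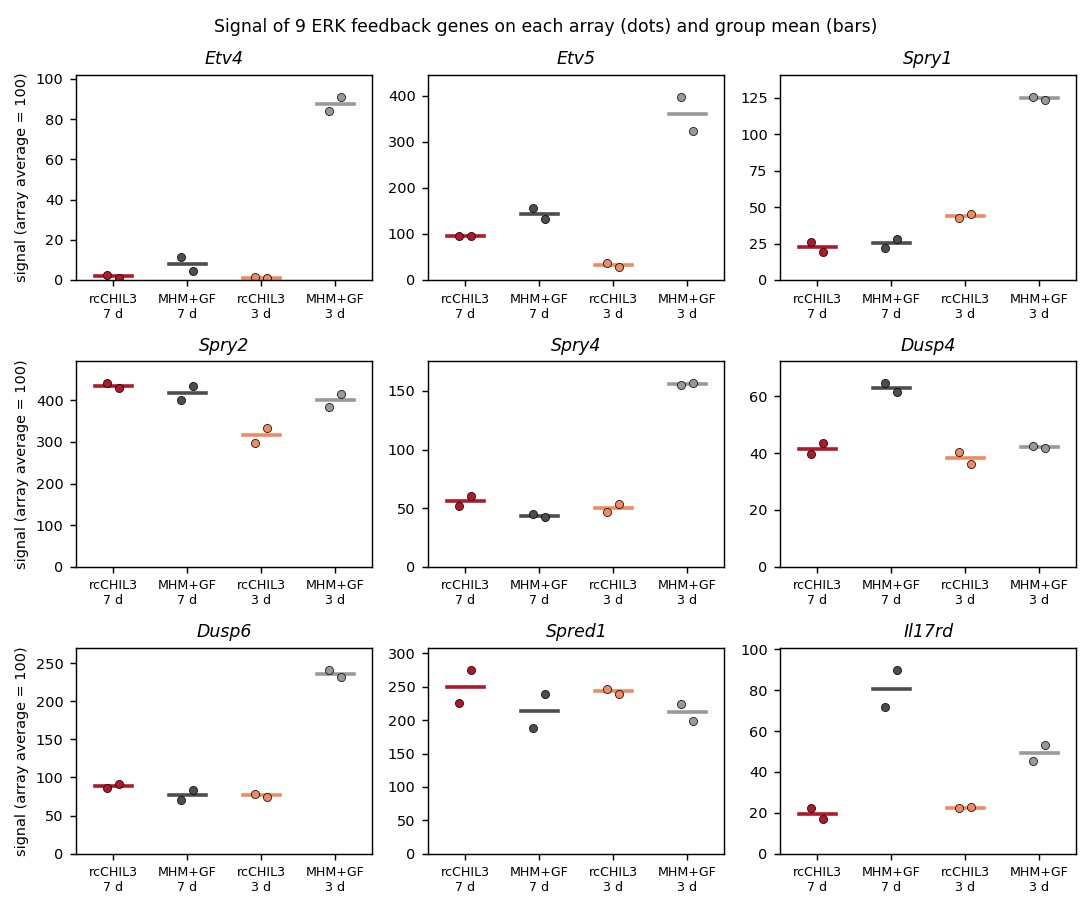
Signal of 9 ERK feedback genes (each by its brightest probe set; vertical axes start at 0 and differ between panels) on each of the 8 arrays, with rcCHIL3 left of MHM + GF and bars at the mean of 2 arrays. Etv4, Etv5, Spry1, Spry4 and Dusp6 stand highest in MHM + GF at 3 days, whereas Dusp4 and Il17rd stand highest in MHM + GF at 7 days.

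Etv5 is a PEA3-group ETS factor. Its signal at 3 days was 35.8 and 29.1 in rcCHIL3, against 398.8 and 324.1 in MHM + GF. The groups lay far apart, with an 11.1-fold lower mean in rcCHIL3 and a log2 change of -2.86 ± 0.11 (SE, limma adjusted p = 4.98e-09). By a t-test as in the methods, with Benjamini-Hochberg adjustment, Etv5 did not pass (adjusted p = 0.0615). Etv4, of the same group, read 1.3 and 1.0 in rcCHIL3, against 84.1 and 91.2 in MHM + GF. Signals under 10 made up 43.2 to 45.5% of each array, so the rcCHIL3 values of Etv4 are near the bottom of the scale and no fold of signals is given. Its change on the log2(signal + 20) scale was -2.35 ± 0.12 (limma adjusted p = 4.06e-08). Which of the 2 Etv genes changed more depended on the processing, since with the tested probe sets of a gene averaged the changes were -2.35 for Etv4 and -2.14 for Etv5.

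Sprouty proteins bind adaptors and RAF below the receptor and dampen RAS and ERK activation. Spry4 gave 47.0 and 53.5 in rcCHIL3, against 155.2 and 156.4 in MHM + GF at 3 days. Spry1 gave 42.4 and 45.0 in rcCHIL3, against 126.0 and 123.9 in MHM + GF. Both genes were cleanly separated between media, 3.10-fold lower for Spry4 (log2 change -1.33 ± 0.10, limma adjusted p = 6.78e-07) and 2.86-fold lower for Spry1 (-1.19 ± 0.11, adjusted p = 5.52e-06). Spry2 gave 298.3 and 333.0 in rcCHIL3, against 384.5 and 415.6 in MHM + GF. The arrays of Spry2 did not overlap either, but its 1.27-fold difference was much smaller (-0.32 ± 0.08, limma adjusted p = 0.00412). Without the first rcCHIL3 array of 3 days, Spry2 changed by -0.25 and no longer passed (adjusted p = 0.0521).

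Dusp6 and Dusp4 are dual-specificity phosphatases that remove the activating phosphates from ERK, Dusp6 in the cytoplasm and Dusp4 in the nucleus. Dusp6 read 78.7 and 75.0 in rcCHIL3 at 3 days, against 240.6 and 231.5 in MHM + GF. Its mean was 3.07-fold lower in rcCHIL3, with a log2 change of -1.40 ± 0.09 (limma adjusted p = 2.67e-07). Dusp4 read 40.3 and 36.1 in rcCHIL3, against 42.5 and 41.8 in MHM + GF. The Dusp4 arrays did not overlap, but the change of -0.10 did not pass the threshold (95% interval -0.30 to 0.11, limma adjusted p = 0.435).

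Il17rd encodes Sef, a membrane protein that restrains FGF signaling. Its signal at 3 days was 22.5 and 22.7 in rcCHIL3, against 45.3 and 53.2 in MHM + GF, a 2.18-fold lower mean with no overlap (log2 change -0.70 ± 0.12, limma adjusted p = 5.23e-04). Spred1 encodes a Sprouty-related protein that acts with neurofibromin to hold RAS inactive. It read 246.4 and 239.6 in rcCHIL3, against 224.4 and 198.6 in MHM + GF. Spred1 thus lay slightly above its MHM + GF arrays, but 0.19 did not pass (95% interval -0.07 to 0.44, limma adjusted p = 0.202).

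At 7 days the picture was narrower. Etv4, Etv5, Dusp4 and Il17rd were lower in rcCHIL3 than in MHM + GF, and Spry1, Spry2, Spry4, Dusp6 and Spred1 did not pass in either direction. That was 4 of 9 genes lower and 0 higher, where 22.7% of all tested probe sets were lower and 21.3% were higher (44.0% in all). The median of the 9 changes was -0.09, against -0.01 over all tested probe sets. Etv4, Dusp4 and Il17rd, 3 of the 4 lower genes, had been tested only through MHM + GF arrays.

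**Figure D2:**
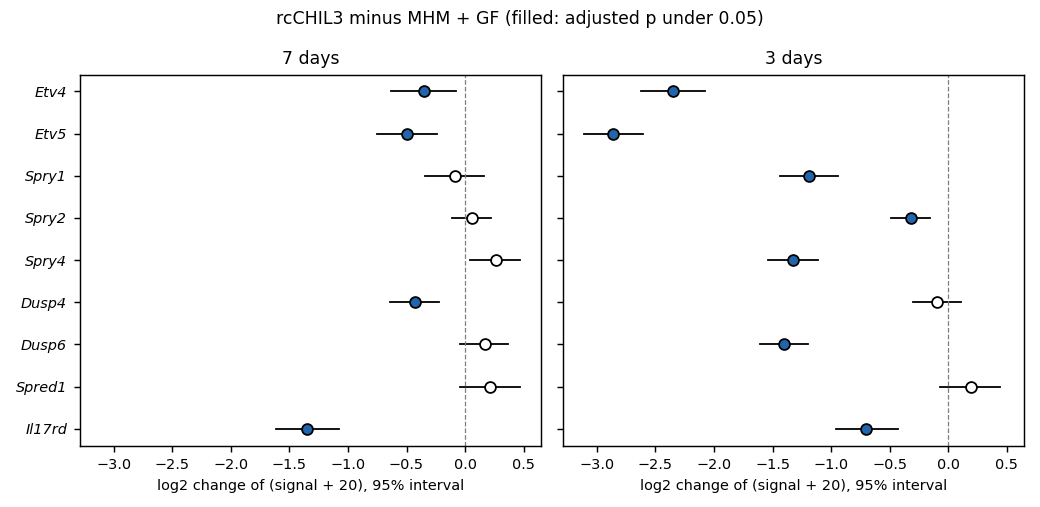
Change of each gene in rcCHIL3 relative to MHM + GF on the log2(signal + 20) scale at 7 days and at 3 days, with 95% intervals from limma (2 arrays a group). Filled points passed the threshold: 4 genes at 7 days and 7 genes at 3 days, all of them below 0.

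Il17rd at 7 days had the lowest log2 change of the 9 genes on this scale. Its signal was 22.3 and 16.8 in rcCHIL3, against 71.8 and 89.8 in MHM + GF. The mean was 4.13-fold lower in rcCHIL3 and the log2 change was -1.35 ± 0.12 (limma adjusted p = 6.76e-06). Dusp4 read 39.6 and 43.4 in rcCHIL3, against 64.5 and 61.4 in MHM + GF. It was 1.52-fold lower with no overlap (-0.43 ± 0.10, limma adjusted p = 0.00379), and it did not pass on the scale as deposited (-0.44, adjusted p = 0.0628).

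Etv5 gave 95.7 and 96.2 in rcCHIL3 at 7 days, against 155.9 and 132.1 in MHM + GF, 1.50-fold lower (log2 change -0.50 ± 0.11, limma adjusted p = 0.00487). The second Etv5 probe set tested did not show this difference, since it read 21.0 and 15.4 in rcCHIL3, against 23.9 and 10.3 in MHM + GF, and changed by 0.06 (95% interval -0.28 to 0.40). With the Etv5 probe sets averaged, the change was -0.22 (adjusted p = 0.141). Etv4 read 2.4 and 1.1 in rcCHIL3, against 11.3 and 4.6 in MHM + GF. Of its 4 arrays at 7 days 3 were under 10, and its log2 change of -0.35 ± 0.12 (limma adjusted p = 0.0376) lost its call in 12 of 21 alternative settings, including a signal floor of 10 (-0.09, adjusted p = 0.690). It also lost the call without either rcCHIL3 array of either day or without the first MHM + GF array of 7 days (limma adjusted p = 0.0536 to 0.279).

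Sprouty signals at 7 days were close in the 2 media. Spry4 gave 51.8 and 60.8 in rcCHIL3, against 44.9 and 42.6 in MHM + GF, so that its rcCHIL3 arrays were both higher, without passing the threshold (0.26, 95% interval 0.04 to 0.47, limma adjusted p = 0.0532). It passed without the first rcCHIL3 array of 7 days (0.34, adjusted p = 0.0420). Spry1 gave 26.3 and 19.0 in rcCHIL3, against 22.1 and 28.4 in MHM + GF, with overlapping arrays (-0.09, 95% interval -0.34 to 0.16). Spry2 gave 440.5 and 429.2 in rcCHIL3, against 401.0 and 434.5 in MHM + GF, also with overlap (0.06, 95% interval -0.11 to 0.22).

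Dusp6 read 85.6 and 91.7 in rcCHIL3 at 7 days, against 70.4 and 83.7 in MHM + GF. Its rcCHIL3 arrays were marginally higher and the change did not pass (0.17, 95% interval -0.04 to 0.37, limma adjusted p = 0.170). Spred1 read 225.7 and 274.7 in rcCHIL3, against 187.9 and 238.9 in MHM + GF, with overlapping arrays (0.21, 95% interval -0.04 to 0.47, adjusted p = 0.153). Among all alternatives, Spred1 passed only without the second MHM + GF array of 7 days (0.37, limma adjusted p = 0.0316).

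Within MHM + GF, the feedback genes split over time. Etv4, Etv5, Spry1, Spry4 and Dusp6 were lower at 7 days than at 3 days, and Dusp4 and Il17rd were higher. These were 5 of 9 genes lower, where 26.0% of all tested probe sets were, and 2 of 9 higher, where 31.1% were (57.1% in all). Etv4 and Spry1 reached a signal of 50 only on the 3-day arrays of MHM + GF, and Dusp4 only on its 7-day arrays. Etv4, Spry1 and Dusp4 were thus tested through the day on which they were high. Dusp6 read 70.4 and 83.7 at 7 days, against 240.6 and 231.5 at 3 days, a 3.06-fold lower mean (log2 change -1.40 ± 0.09, limma adjusted p = 2.51e-07). Spry4 was 3.56-fold lower at 7 days (-1.46 ± 0.10, adjusted p = 2.81e-07) and Spry1 was 4.95-fold lower (-1.68 ± 0.11, adjusted p = 2.9e-07). None of these genes had overlapping arrays between the days, but the share of all probe sets without overlap was not counted.

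Etv5 in MHM + GF was 2.51-fold lower at 7 days than at 3 days (log2 change -1.21 ± 0.11, limma adjusted p = 4.44e-06), and Etv4 changed by -1.96 ± 0.12 (adjusted p = 1.76e-07). Il17rd ran the other way, with 71.8 and 89.8 at 7 days, against 45.3 and 53.2 at 3 days (0.54 ± 0.12, limma adjusted p = 0.00262). Dusp4 did likewise, with 64.5 and 61.4 at 7 days, against 42.5 and 41.8 at 3 days (0.42 ± 0.10, adjusted p = 0.00312). Spry2 (0.06, 95% interval -0.11 to 0.23) and Spred1 (0.01, 95% interval -0.25 to 0.26) did not pass, and both had overlapping arrays.

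Within rcCHIL3, most of the genes differed little between the days. Etv5 and Spry2 were higher and Spry1 was lower at 7 days than at 3 days, which was 2 of 9 genes higher and 1 of 9 lower, where 18.0% and 17.9% of all tested probe sets were (35.8% in all). Etv5 read 95.7 and 96.2 at 7 days, against 35.8 and 29.1 at 3 days (log2 change 1.15 ± 0.11, limma adjusted p = 2.03e-05). Its arrays were well apart between the days, and the direction was opposite to that in MHM + GF. Spry2 read 440.5 and 429.2 at 7 days, against 298.3 and 333.0 at 3 days (0.44 ± 0.08, limma adjusted p = 9.88e-04). Spry1 read 26.3 and 19.0 at 7 days, against 42.4 and 45.0 at 3 days, lower in rcCHIL3 as in MHM + GF (-0.58 ± 0.11, adjusted p = 0.00217).

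The other 6 genes did not pass over time in rcCHIL3. Their changes lay between -0.11 for Il17rd (95% interval -0.37 to 0.15) and 0.17 for Dusp6 (95% interval -0.04 to 0.37).

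**Figure D3:**
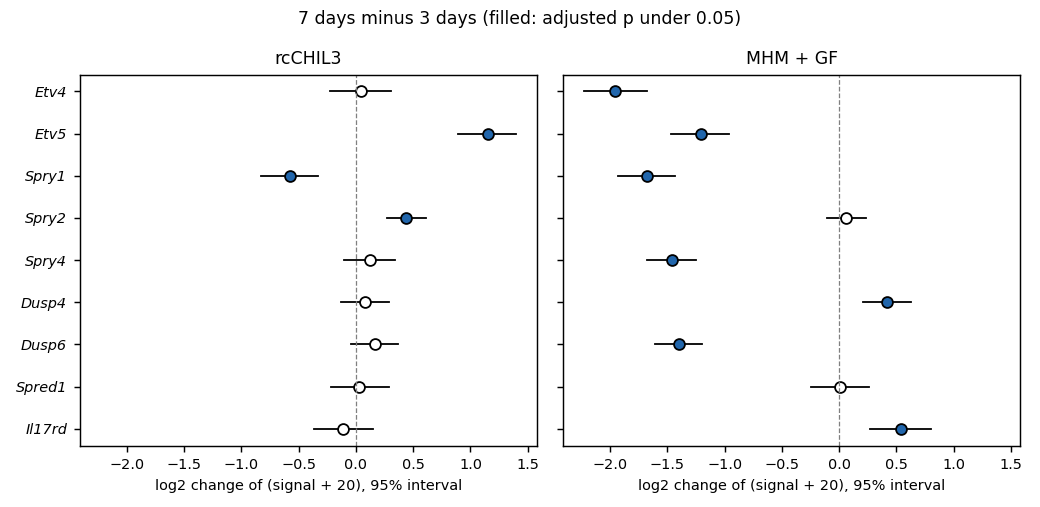
Change of each gene at 7 days relative to 3 days on the log2(signal + 20) scale, in rcCHIL3 and in MHM + GF, with 95% intervals from limma (2 arrays a group). Filled points passed the threshold, 3 genes in rcCHIL3 and 7 genes in MHM + GF, and Etv5 lies on opposite sides of 0 in the 2 media. In MHM + GF, Etv4, Spry1 and Dusp4 were tested only through the day on which they were high.

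The medium effect itself differed between the days for 7 of the 9 genes, as it did for 41.4% of all tested probe sets. The effect at 7 days minus that at 3 days was above 0 for 6 genes, where 18.7% of all tested probe sets passed upward, and below 0 for 1 gene, where 22.7% passed downward. Among the 6 were Etv4 and Spry1, which had been tested only through MHM + GF arrays of 3 days. The 1 gene below 0, Il17rd, had been tested only through MHM + GF arrays. The difference was 2.36 ± 0.16 for Etv5 (limma adjusted p = 8.69e-07), 1.58 ± 0.14 for Spry4 (adjusted p = 6.07e-06) and 1.57 ± 0.13 for Dusp6 (adjusted p = 4.31e-06). All of these genes were lower in rcCHIL3 at 3 days, whereas at 7 days Etv5 was lower by less and Spry4 and Dusp6 did not pass. Il17rd was the 1 gene in the opposite direction, lower in rcCHIL3 by more at 7 days than at 3 days (-0.65 ± 0.17, limma adjusted p = 0.0100). On the scale as deposited this was -0.66 and did not pass (adjusted p = 0.0603). Dusp4 leaned the same way without passing (-0.34, 95% interval -0.63 to -0.04, limma adjusted p = 0.0666), and Spred1 was near 0 (0.03, 95% interval -0.33 to 0.39).

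Ordered by level, Etv5 ran from rcCHIL3 at 3 days up through rcCHIL3 at 7 days and MHM + GF at 7 days to MHM + GF at 3 days, each neighbouring pair without overlap. Dusp6, Spry4 and Etv4 shared another order, in which MHM + GF at 3 days stood alone and the other 3 groups lay close together. For Dusp6 those 3 groups spanned 70.4 to 91.7, for Spry4 42.6 to 60.8 and for Etv4 1.0 to 11.3. Spry1 had the 7-day groups overlapping at the bottom, then rcCHIL3 at 3 days and, highest, MHM + GF at 3 days. Il17rd ran from both rcCHIL3 groups, which were close, up through MHM + GF at 3 days to MHM + GF at 7 days. Dusp4 stood out only in MHM + GF at 7 days, and Spry2 was lowest in rcCHIL3 at 3 days. Spred1 arrays of all 4 groups ranged from 187.9 to 274.7 with overlap between some of the groups.

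Measured as the root mean square difference of the centred log2 values over the 8 arrays, the closest pair of members was Spry4 and Dusp6 (0.10), followed by Spry2 and Dusp4 (0.21), Spry2 and Spred1 (0.25) and Spry1 and Spry4 (0.29). The most unlike pair was Etv5 and Spred1 (1.12). Among 8966 other tested genes, the profiles most like that of Dusp6 belonged to the long noncoding RNA Celrr (0.09), the carbonic anhydrase gene Car2 (0.09) and Ddias (0.11). Car2 averaged 260 in rcCHIL3, against 211 in MHM + GF, at 7 days, and 218 in rcCHIL3, against 594 in MHM + GF, at 3 days. Closest to Etv5 were BC064078 (0.23), the collagen gene Col5a2 (0.26) and Kitl (0.31), which encodes the ligand of the KIT receptor. Col5a2 averaged 64.3 in rcCHIL3, against 103 in MHM + GF, at 7 days, and 35.8 in rcCHIL3, against 300 in MHM + GF, at 3 days. Closest to Etv4 were Tpx2 (0.11), Cdc25c (0.16) and Anln (0.16). Likeness had been planned for Dusp6 and for the member with the largest change at 3 days, Etv5, whereas Etv4 was added outside that plan. Etv4 read only 1.0 to 11.3 outside MHM + GF at 3 days. Genes closest to the remaining members are not given. These likenesses rest on 4 groups only and are a description.

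Further probe sets were available for 6 of the 9 genes. The second tested Etv5 probe set reached 50 only on the MHM + GF arrays of 3 days, so that its lower value in rcCHIL3 at 3 days is no independent support (9.0 and 9.8, against 59.4 and 57.5 in MHM + GF, log2 change -1.41 ± 0.15, limma adjusted p = 1.55e-05). A dim Etv4 probe set that was not tested ran the same way at 3 days, with a fitted change of -0.69 ± 0.09. A dim Spry4 probe set, also not tested, gave 13.7 and 13.8 in rcCHIL3 and 40.0 and 34.3 in MHM + GF. The second Il17rd probe set stayed between 6.2 and 7.4 on every array and was at the bottom of the scale. The other 8 that were not tested (1 of Etv5, 1 of Spry2, 2 of Spry4 and 4 of Spred1) never exceeded 36.7, and none of them is read further.

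Spred1 probe sets did not share one direction. Of the 8 there were 4 tested, and the one next in brightness was lower in rcCHIL3 at 3 days, with 191.6 and 176.6 in rcCHIL3 and 225.0 and 211.9 in MHM + GF (-0.22 ± 0.08, limma adjusted p = 0.0366). The same probe set was lower at 7 than at 3 days in MHM + GF (-0.39 ± 0.08, limma adjusted p = 0.00151). Another was higher at 7 than at 3 days both in rcCHIL3 (0.42 ± 0.09, adjusted p = 0.00480) and in MHM + GF (0.33 ± 0.09, limma adjusted p = 0.0106). No direction is therefore given for Spred1 as a gene.

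Other genes of the pathway did not share one direction. Of all tested probe sets, 22.5% were lower and 27.7% higher in rcCHIL3 at 3 days, and 22.7% and 21.3% at 7 days. Among 21 further genes of the same families, 15 were tested. Of them 7 were lower and 6 higher in rcCHIL3 at 3 days, and 1 was lower and 6 were higher at 7 days. Of these 15, 2 (Ets1 and Dusp10) reached 50 only on MHM + GF arrays and 2 (Dusp7 and Ets2) only on rcCHIL3 arrays, so that they were tested through the medium in which they were high. Ets1 and Elk3, both ETS factors, were lower at 3 days (log2 change -1.36 ± 0.10 and -0.94 ± 0.10), as was Dusp10, a phosphatase of p38 and JNK (-0.85 ± 0.11), whereas Dusp3, which acts on ERK and JNK, was higher (0.84 ± 0.11). Dusp1, the immediate early phosphatase, was lower at 3 days (-0.58 ± 0.08, limma adjusted p = 1.53e-04) and higher at 7 days (1.21 ± 0.08, adjusted p = 1.01e-06). Its signal at 7 days was 515.8 and 456.0 in rcCHIL3, against 194.7 and 200.9 in MHM + GF. Dusp7, a cytoplasmic ERK phosphatase like Dusp6, was higher on both days (0.85 ± 0.12 at 7 days and 0.58 ± 0.12 at 3 days).

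Of 14 receptors and ligands, 8 were tested. At 7 days 2 were lower and 5 higher, where 22.7% and 21.3% of all tested probe sets were. At 3 days 3 were lower and 3 higher, where 22.5% and 27.7% of all tested probe sets were. Egfr, the receptor of EGF, read 380.1 and 374.9 in rcCHIL3, against 756.9 and 843.5 in MHM + GF, at 7 days. At 3 days it read 214.7 and 217.9 in rcCHIL3 and 845.6 and 792.6 in MHM + GF. Egfr was thus lower in rcCHIL3 on both days (log2 change -1.04 ± 0.07 at 7 days and -1.83 ± 0.07 at 3 days, limma adjusted p = 7.81e-07 and 3.61e-09). Fgfr3 was lower at 3 days (-0.85 ± 0.06) and higher at 7 days (0.28 ± 0.06), while Fgfr2 was higher at 3 days (0.78 ± 0.13). Tgfa, a ligand of the EGF receptor, was higher at 3 days (1.03 ± 0.08). Erbb3, a relative of that receptor, was higher at 7 days (1.36 ± 0.10), as was Fgf1 (0.71 ± 0.10). Erbb3 reached 50 only on the rcCHIL3 arrays of 7 days and was tested through them.

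Genes of the cascade from receptor to ERK passed in both directions, as did tested probe sets in general. Of its 23 genes 15 were tested. At 7 days 1 was lower and 2 were higher, where 22.7% and 21.3% of all tested probe sets were. At 3 days 3 were lower and 5 higher, where 22.5% and 27.7% of all tested probe sets were. The counts at 3 days thus lay near the shares over all tested probe sets. The median change of the cascade at 3 days was 0.15. The kinase gene Araf (0.66 ± 0.07), the phosphatase gene Ptpn11 (0.65 ± 0.07) and the RAS activator Sos2 (0.53 ± 0.06) were higher in rcCHIL3 at 3 days, and Rps6ka3, which encodes a kinase activated by ERK, was lower (-0.58 ± 0.08). At 7 days Map2k1, which encodes MEK1, was higher (0.95 ± 0.10) and the adaptor gene Gab1 was lower (-0.27 ± 0.09, limma adjusted p = 0.0339).

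Of 20 other genes induced through ERK, 15 were tested. At 7 days 2 were lower and 8 higher, where 22.7% and 21.3% of all tested probe sets were. At 3 days 4 were lower and 6 higher, where 22.5% and 27.7% of all tested probe sets were. Ccnd1, the D-type cyclin of the entry into the cell cycle, was lower at 3 days, at 133.0 and 128.4 in rcCHIL3 and 870.8 and 861.5 in MHM + GF (-2.56 ± 0.07, limma adjusted p = 6.67e-10). Flrt3, which encodes a partner of FGF receptors, was also lower (-1.22 ± 0.12) but had been tested only through MHM + GF arrays of 3 days. Epha4, a receptor for ephrins, and Junb, an AP-1 factor, were higher (1.50 ± 0.08 and 1.00 ± 0.10). The immediate early gene Egr2 was higher at 7 days, at 212.4 and 201.9 in rcCHIL3 and 81.0 and 74.6 in MHM + GF (1.22 ± 0.08, limma adjusted p = 5.43e-07), and so was Phlda1 (1.12 ± 0.08). Egr1 and Fos did not pass on either day (-0.13 and -0.08 at 7 days, 0.05 and 0.11 at 3 days). The median change of this list was 0.53 at 7 days and 0.06 at 3 days, beside -0.09 and -1.19 for the feedback genes. Both feedback medians are the values of Spry1, which was tested only through MHM + GF arrays. That held for 4 of the 9 feedback genes, against 1 of the 15 genes here. The filter thus acted unequally on the lists, and their medians are no test of a difference.

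**Figure D4:**
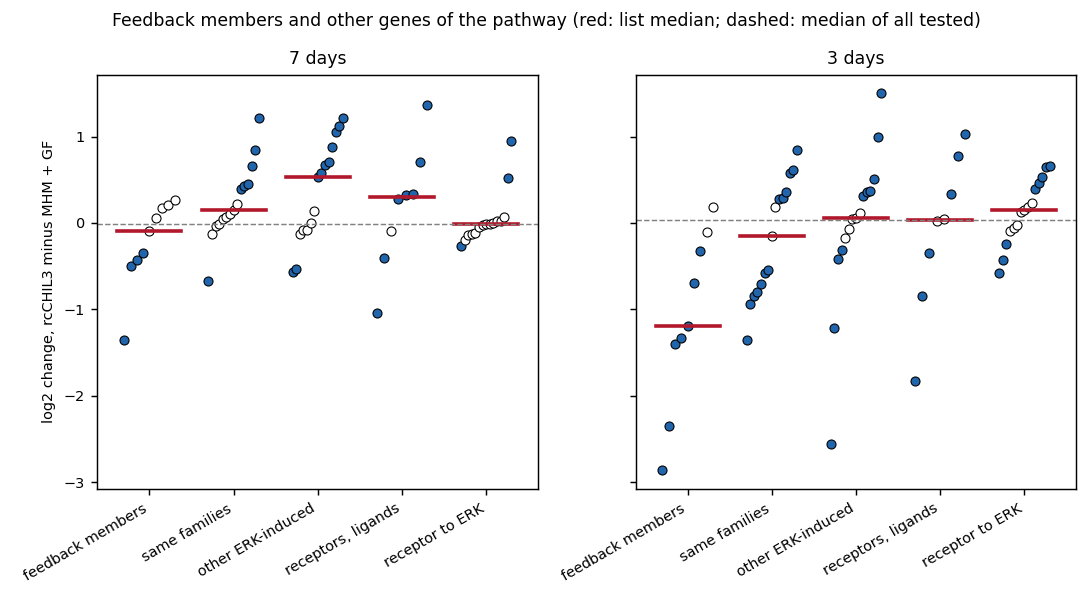
Change in rcCHIL3 relative to MHM + GF on the log2(signal + 20) scale at 7 days and at 3 days for the 9 feedback genes and for 4 lists of other pathway genes. Each point is 1 gene, filled where it passed the threshold. Red bars mark each list's median, which at 3 days is -1.19 for the feedback genes and between -0.15 and 0.15 for the other lists. Of the 9 feedback genes, 4 were tested only through MHM + GF arrays, among them Spry1, whose value is the feedback median.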

How the data were processed

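Total RNA of 8 neurosphere cultures was hybridised to 1 array each. The authors computed signal intensities with the MAS5 algorithm in Affymetrix Expression Console 1.1 and deposited them on a linear scale. The deposited averages per array were 267.3 to 316.6, and each array was rescaled to the average of 100 that the methods state. Detection calls were not used here. Probe sets with fewer than 2 arrays at 50 or more were left out, as were array controls, leaving 15679. log2(signal + 20) was fitted with limma 3.58.1 (R 4.3.3) as 4 group means with a trended eBayes variance and 4 residual degrees of freedom. Tests were two-sided with Benjamini-Hochberg adjustment over all 15679 probe sets and a threshold of 0.05. A gene was represented by its brightest tested probe set. The fit was tested on simulated data. All 9 members with a probe set of their own are named. From each other list, the genes with the largest changes past the threshold are. Egr1 and Fos, which did not pass, are named in addition. Members and lists were chosen with earlier results of these data known. With 2 arrays a group, their number limits the precision. Alternatives were another offset, a floor, filters, normalizations, tests and each array left out.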

Additional observations from a re-analysis of the deposited data

Results flagged for a closer look

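The effect of rcCHIL3 relative to MHM + GF differed between 7 and 3 days for 7 feedback genes, by limma's test of the difference (effect at 7 days minus effect at 3 days, log2). For Etv4 the difference was 1.99 (adjusted p = 6.07e-06), from effects of -0.35 at 7 days and -2.35 at 3 days. For Etv5 it was 2.36, from -0.50 and -2.86, and for Spry1 it was 1.10, from -0.09 and -1.19 on those days. For Spry2 it was 0.38 (limma adjusted p = 0.0151), for Spry4 1.58 and for Dusp6 1.57. For Il17rd it was -0.65, from -1.35 at 7 days and -0.70 at 3 days. Etv4 and Spry1 had been tested only through MHM + GF arrays of 3 days, and Il17rd only through MHM + GF arrays. The difference of Spry2 no longer passed without the first rcCHIL3 array of 3 days (0.31, adjusted p = 0.0704) or without the second MHM + GF array of 3 days (0.33, limma adjusted p = 0.0557). The summed proliferation markers differed between media on both days too, as given above, and their part in these differences was not tested.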

How the results depend on the processing

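Over 22 alternatives, the 28 member results past the threshold kept direction and call in 553 of their refits, lost the call in 32 and turned direction in 0. Of the 17 results not past it, 338 refits stayed so, 10 passed and 15 changed sign. One member was higher at 7 days (0 in the report) with a floor of 10, a filter of 100, quantile normalization, no trend, probe sets averaged, and a replicate block (Spry4, 0.26, adjusted p = 0.0490). Neither the labels nor the methods say whether equal repeat numbers belong together. Correlations of deviations between groups were weak (-0.011 to 0.102), the highest being between the media at 3 days (0.102) and at 7 days (0.083). They do not settle whether the samples were paired. The block changed no other call of a member. Members lower at 7 days numbered 1 with a filter of 100, under which Etv4, Dusp4 and Il17rd were not tested, 2 by the methods' t-test unadjusted and 0 after Benjamini-Hochberg, which called 97, 2296, 0 and 2256 probe sets at 7 days, at 3 days, over time in rcCHIL3 and over time in MHM + GF. With it, members lower at 3 days numbered 4. Etv5, Spry2 and Il17rd lost the call there (t-test adjusted p = 0.0615, 0.146 and 0.0768). By the same adjusted test, members changed over time in rcCHIL3 numbered 0 lower and 0 higher, and those higher over time in MHM + GF 1. Unadjusted, that last count was 1 too, and a filter of 100 left 0. The difference of effects was lower for 0 members with a filter of 100 or the deposited scale, and for 2 without a trend or with probe sets averaged. Without each array in turn, members lower at 7 days numbered 3 to 4 and higher 0 to 1, lower at 3 days 6 to 7, and with a higher difference 5 to 6. Probe sets called over time in rcCHIL3 ranged from 3731 to 5769, the lowest without its second array of 3 days. Results not past the threshold that changed sign were Spry1 at 7 days (-0.21 to 0.04 with single arrays left out, as for the other ranges), Spred1 at 3 days (-0.03 with probe sets averaged), Etv4 over time in rcCHIL3 (-0.00 with a floor of 10; -0.01 to 0.08), Spred1 over time in rcCHIL3 (-0.10 to 0.16) and in MHM + GF (-0.01 quantile, -0.02 median centring, -0.06 deposited scale; -0.15 to 0.16), Spry2 over time in MHM + GF (-0.01 deposited scale) and the Spred1 difference (-0.13 to 0.19). The causes were not tested. The difference of effects was not refitted by the methods' t-test or with only the groups compared. Signals near the bottom of the scale limit Etv4, and 2 arrays a group limit every result.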
